A study of Mus musculus with 9 samples.

Results

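The SOX transcription factors described here are 10 genes, taken as the rows of the deposited raw-count table with the symbols Sox2, Sox4, Sox5, Sox6, Sox9, Sox11, Sox12, Sox13, Sox17 and Sox18. All 10 were found among the 45808 gene symbols of the table. RNA was sequenced from mK4, a mouse cell line of embryonic kidney mesenchyme, to ask what changes when the forkhead factor Foxd2 is lost. Clone F7 (n = 4 libraries) was made with CRISPR/Cas and carries a homozygous frameshift in Foxd2, and control cells (n = 5) went through the same procedure with a guide that targets no gene and are wild type for Foxd2. Both were grown in medium with 10% fetal bovine serum. F7 is 1 clone, so genotype and clone cannot be told apart, and since no label names separate cultures, the p-values may rest on technical spread between libraries alone.

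SOX proteins share the HMG box, a domain that binds the minor groove of DNA and bends it, and most act together with a partner factor bound nearby. The family is sorted by sequence into groups. Sox2 belongs to SOXB1 and is known for pluripotent and neural progenitor cells. Sox4, Sox11 and Sox12 form SOXC, a group of activators in embryonic progenitors, and mouse Sox4 and Sox11 act in kidney development. Sox5, Sox6 and Sox13 form SOXD, whose proteins lack a transactivation domain of their own. Sox9 belongs to SOXE with Sox8 and Sox10, and Sox8 and Sox9 act in the branching ureteric bud and in cartilage. Sox17 and Sox18 belong to SOXF with Sox7 and are known for endothelium.

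Library totals ran from 6041556 to 14024859 counts in F7 and from 10526591 to 16032175 counts in control, and the lowest belonged to F7 replicates 3 and 4. These 2 libraries carry mk3 for the cell line in the header of the raw-count table and mk4 in the authors' normalized table and in the sample titles. The first principal component held 64.8% of the variance and parted the groups, with control replicates 3 and 5 nearest to F7. The targeted gene Foxd2 was not lower but higher in F7, at 18.3 ± 3.78 CPM (SD, n = 4) against 3.73 ± 0.538 CPM (SD, n = 5) in control; CPM are counts scaled to a common library size with TMM factors, in the usual per-megaread unit. A frameshift cannot be seen in counts per gene. Among 10 markers of kidney mesenchyme, Wt1 and Six2 had no read in any library and Osr1 had 10 reads in F7 and 6 in control, whereas Hoxa11, Eya1, Pax2, Pax8, Emx2, Cdh2 and Vim were tested, and Pax2, Pax8 and Emx2 fell in F7.

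Of the 10 SOX genes, 3 carried nearly all of the signal. Summed over the libraries of a group, Sox4 had 4340 reads in F7 and 8727 in control, Sox11 had 6238 and 9540, and Sox9 had 2691 and 4257. Sox12 had 62 reads in F7 and 55 in control, and Sox5 had 13 and 41. The remaining 5 (Sox2, Sox6, Sox13, Sox17 and Sox18) had 0 to 5 reads per group. A level per kilobase of annotated exon was used to compare genes of different length. On that scale Sox4 stood highest with 23.8 ± 0.684 CPM per kb in F7 (SD, n = 4) and 28.1 ± 2.93 in control (SD, n = 5). Sox11 followed with 19.2 ± 2.20 in F7 and 17.7 ± 1.74 in control, and Sox9 with 16.1 ± 3.93 in F7 and 15.7 ± 4.38 in control. Sox4 was above Sox11 in all 4 F7 and all 5 control libraries, without overlap in either group. Sox11 was above Sox9 in 4 of 4 F7 and 4 of 5 control libraries, but their ranges overlapped in both groups, so the order of these neighbours is not fixed beyond their spread. Across the 19 SOX genes considered (the 10 members and 9 further family genes), Sox4, Sox9 and Sox11 together made up 95.2 to 96.5% of the level per kb in F7 and 97.0 to 98.2% in control.

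**Figure D1:**
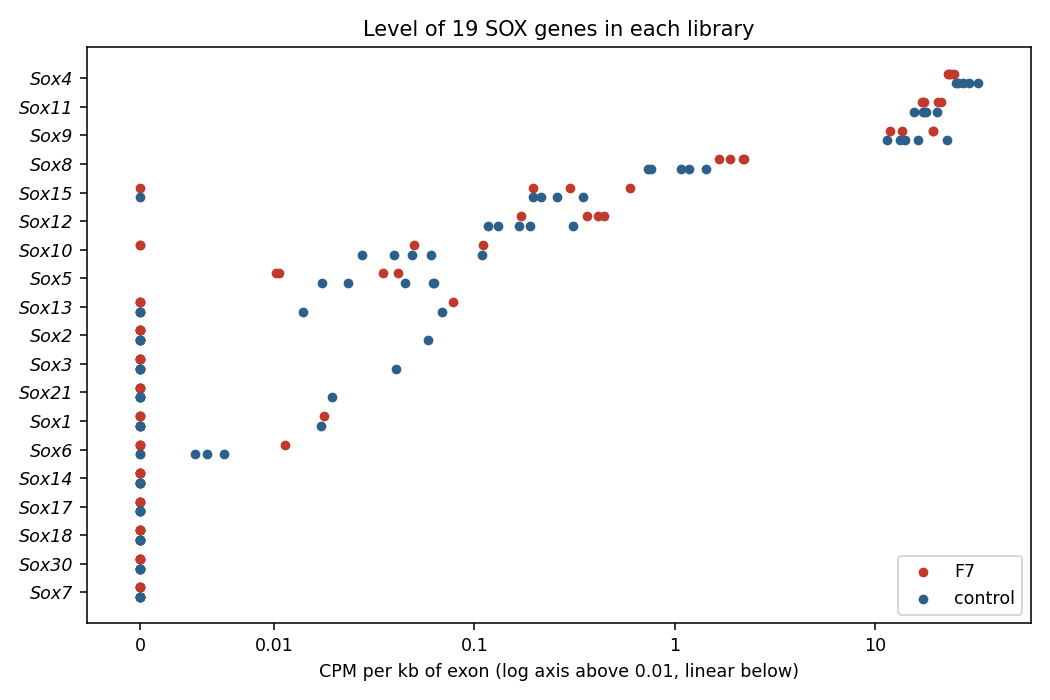
Level of 19 SOX genes in each library as CPM per kb of annotated exon (horizontal axis, logarithmic above 0.01 and linear below), with F7 libraries in red above control libraries in blue for each gene. Sox4, Sox11 and Sox9 stand at 11.5 CPM per kb or more in every library, Sox8 lies between 0.735 and 2.21, and Sox7, Sox14, Sox17, Sox18 and Sox30 are at 0 in all libraries.

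Sox4, Sox9, Sox11 and Sox12, 4 of the 10 members, passed the low-count filter and were tested between F7 and control with edgeR's quasi-likelihood test over 14730 genes, with Benjamini-Hochberg adjustment over all of them. Only Sox4 was called at an adjusted p under 0.05, and it was lower in F7. Over all tested genes 35.3% were called, 17.4% higher and 17.9% lower, so 1 call among 4 tested members lies near this background. The median absolute log2 fold change of all tested genes was 0.23.

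In the SOXC group Sox4 fell slightly in F7, and neither Sox11 nor Sox12 passed the test. Sox4 (ENSMUSG00000076431.4; mm10 chromosome 13, 28948919 to 28953713, minus strand, a single-exon gene) had 115, 118, 111 and 112 CPM in F7 libraries 1 to 4, against 125, 156, 140, 121 and 132 CPM in control libraries 1 to 5. Every F7 library lay below every control library, the nearest values being 118 and 121, as the library values of 27.6% of all tested genes also did not overlap between the groups. The log2 fold change was -0.24 (SE 0.07, 95% interval -0.40 to -0.08, edgeR adjusted p = 0.0236), a level 0.846 times that of control. In bulk RNA, fewer cells with a transcript and less of it per cell cannot be told apart. Without F7 replicate 1, 3 or 4 the edgeR adjusted p was 0.0591, 0.0626 and 0.0605, and it was 0.159 with F7 replicates 1 and 2 alone and 0.107 with F7 replicates 3 and 4 alone, at log2 fold changes of -0.20 and -0.27 in these last 2 settings; over all 23 other settings the adjusted p ran from 0.0142 to 1. The noncoding gene Gm26735 overlaps an exon of Sox4 on the other strand and had no read in any library.

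Sox11 (ENSMUSG00000063632.6; chromosome 12, 27334264 to 27342574, minus strand, also a single exon) had 178, 172, 142 and 146 CPM in F7 libraries 1 to 4. In control libraries 1 to 5 it had 146, 149, 129, 144 and 169 CPM. The groups overlapped, since F7 libraries 3 and 4 lay among the controls and control library 5 lay near F7 libraries 1 and 2. The log2 fold change of 0.12 (SE 0.09, 95% interval -0.07 to 0.31) did not pass (edgeR adjusted p = 0.317). It was 0.25 with F7 replicates 1 and 2 alone and -0.03 with only F7 replicates 3 and 4 (adjusted p by edgeR 0.0696 and 0.862), so the sign changed between these pairs of F7 libraries.

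Sox12 (ENSMUSG00000051817.8; chromosome 2, 152393611 to 152398063, minus strand) is the SOXC member with the lowest level. It had 27, 19, 11 and 5 reads in F7 libraries 1 to 4, or 1.98, 1.63, 1.85 and 0.765 CPM. In control libraries 1 to 5 it had 23, 7, 7, 8 and 10 reads, or 1.39, 0.519, 0.581, 0.743 and 0.843 CPM. F7 libraries 1 to 3 were above all controls, whereas F7 library 4 lay among them. The log2 fold change was 0.93 (SE 0.35, 95% interval 0.18 to 1.68) with an edgeR adjusted p of 0.0533, just outside the threshold. The filter asks for 0.833 CPM on unscaled totals in 4 libraries, which 3 F7 and 2 control libraries reached. The adjusted p was 0.0486 by limma voom and 0.0276 by edgeR without F7 replicate 4, and without control replicate 1, its highest control, Sox12 did not pass the filter. Over the 22 settings that tested it the adjusted p ran from 0.0276 to 0.590. In the authors' deposited table Sox12 has a log2 fold change of 1.01 and an adjusted p of 0.0427.

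Since Foxd2 is a forkhead factor, the RefSeq promoter windows (GRCm38.p6, 250 bases before to 50 after a gene's start) were searched on both strands for the forkhead motif TGTTTAC and for the SOX motif AACAAT. Matches to the 2 motifs can share letters, but no member's window held both. Windows of 7 of the 10 members were searched, and Sox9, Sox17 and Sox18 were not analysed here. The forkhead motif occurs in 3.65% of all 32851 windows of the table and the SOX motif in 10.7%. Among the members, the forkhead motif occurred once, in Sox12, with its first base 107 bases before the start, and the SOX motif was found 2 times over the 6 windows listed for Sox6. The stretch from 250 to 51 bases before the start is shown for the SOXC genes, with the motif in capitals, to set the window that holds it beside the windows of its relatives that hold neither motif. They are chr2:152398097-152398296 for Sox12, chr13:28953750-28953949 for Sox4 and chr12:27342769-27342968 for Sox11, all on the minus strand.
Sox12: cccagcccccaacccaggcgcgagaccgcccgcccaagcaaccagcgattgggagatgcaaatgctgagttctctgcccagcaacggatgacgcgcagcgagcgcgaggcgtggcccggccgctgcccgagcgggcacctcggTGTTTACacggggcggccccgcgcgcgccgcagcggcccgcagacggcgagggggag
Sox4: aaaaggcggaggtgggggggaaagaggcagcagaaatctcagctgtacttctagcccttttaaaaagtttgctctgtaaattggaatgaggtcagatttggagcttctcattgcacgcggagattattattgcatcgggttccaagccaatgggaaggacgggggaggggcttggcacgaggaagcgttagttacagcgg
Sox11: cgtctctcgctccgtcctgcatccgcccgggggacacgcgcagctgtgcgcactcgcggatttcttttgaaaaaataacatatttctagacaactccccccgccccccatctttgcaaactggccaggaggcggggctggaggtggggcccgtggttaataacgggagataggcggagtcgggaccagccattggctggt
A match describes letters in a window and is no evidence of binding, and no binding was measured.

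Sox9 (ENSMUSG00000000567.5; chromosome 11, 112782224 to 112787760, plus strand, 3 exons), the SOXE member and the factor that drives cartilage formation, varied most between libraries among the 3 abundant genes. It had 80.7, 80.0, 56.1 and 49.1 CPM in F7 libraries 1 to 4, against 67.9, 94.4, 47.6, 58.4 and 55.2 CPM in control libraries 1 to 5. F7 libraries 1 and 2 and control library 2 were the highest, and the F7 values lay within the range of the controls. The log2 fold change was 0.05 (SE 0.22, edgeR adjusted p = 0.874), and its 95% interval of -0.44 to 0.55 allows a change of either sign. With F7 replicates 1 and 2 alone the log2 fold change was 0.32 and with F7 replicates 3 and 4 alone it was -0.30, neither called (edgeR adjusted p = 0.316 and 0.444). The noncoding gene BC006965, which lies 248 bases from Sox9 on the other strand, had 0 reads in F7 and 1 read in control.

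**Figure D2:**
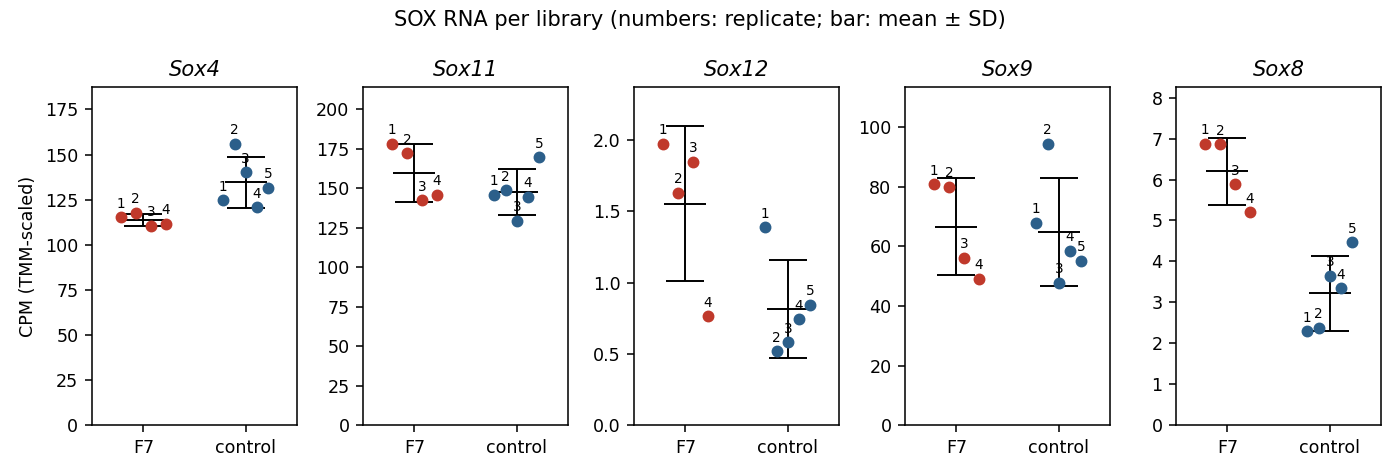
CPM on TMM-scaled library sizes for Sox4, Sox11, Sox12, Sox9 and Sox8 in each F7 library (red, n = 4) and each control library (blue, n = 5), with the replicate number at each point and bars for the mean ± SD. Each F7 library lies below each control for Sox4 and above each control for Sox8, whereas Sox11, Sox12 and Sox9 overlap between the groups.

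Of the other family genes, Sox8, the close relative of Sox9 within SOXE, was the 1 of 9 that passed the filter. Sox8 (chromosome 17, 25565892 to 25570686, minus strand) had 6.88, 6.86, 5.88 and 5.20 CPM in F7 libraries 1 to 4. It had 2.29, 2.37, 3.65, 3.34 and 4.47 CPM in control libraries 1 to 5, so every F7 library lay above every control. Sox8 rose to 1.97 times the control level, or by 0.98 ± 0.21 on the log2 scale (SE; edgeR adjusted p = 0.00276). From F7 replicates 3 and 4 alone the value was 0.80 without a call (edgeR adjusted p = 0.0992; 0.000154 to 0.154 over 23 settings). The antisense gene 2810468N07Rik, which overlaps exons of Sox8, had at most 6 reads in any library. The Sox8 level per kb stayed far below that of Sox9, at 1.99 ± 0.261 CPM per kb in F7 (SD, n = 4) and 1.03 ± 0.293 in control (SD, n = 5). Sox10, the third SOXE gene, had 3 reads in F7 and 11 in control. Sox15 had 11 reads in F7 and 12 in control, but its exons overlap those of Mpdu1 on the other strand, and its reads may in part belong to that gene. Sox1 had 1 read in each group, Sox3 and Sox21 had 0 in F7 and 1 in control, and Sox14 and Sox30 had none.

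Ratios between SOX genes within a library do not depend on how libraries are scaled. The 6 ratios among Sox4, Sox11, Sox9 and Sox8 were chosen after the levels were seen and are given with no test. The ratio of Sox11 to Sox4 reads was 1.28 to 1.55 in F7 against 0.921 to 1.29 in control, so the highest control library reached the lowest F7 library. Its mean was higher in F7 by 0.35 on the log2 scale. The Sox9 to Sox8 ratio was 9.44 to 11.7 in F7 and 12.4 to 39.8 in control, lower in every F7 library. Sox4 over Sox8 was 16.7 to 21.5 in F7 and 29.5 to 65.8 in control, and Sox11 over Sox8 was 24.2 to 28 and 35.4 to 63.5, both without overlap. The ratios of Sox4 and of Sox11 to Sox9 overlapped widely, at 1.43 to 2.28 in F7 and 1.65 to 2.94 in control for Sox4 and at 2.15 to 2.96 and 1.57 to 3.07 for Sox11.

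The SOXD members were near the limit of what these libraries can show. Sox5 (chromosome 6, 143828425 to 144781977, minus strand) had 2, 7, 3 and 1 reads in F7 libraries 1 to 4 and 15, 12, 3, 7 and 4 reads in control libraries 1 to 5. Summed over each group this is 0.344 CPM in F7 (95% exact Poisson interval 0.183 to 0.588) and 0.633 CPM in control (0.454 to 0.859), intervals that cover counting error only and that overlap. Fitted without the low-count filter, Sox5 differed by -0.83 on the log2 scale with an SE of 0.54 (edgeR adjusted p = 0.320). Sox6 (chromosome 7, 115470872 to 116038796, minus strand), the usual partner of Sox5 in cartilage, had 1 read in F7 and 3 in control. Sox13 (chromosome 1, 133382303 to 133424377, minus strand) had 2 reads in F7, both in library 3, and 5 in control, 4 of them in library 2. Of the noncoding genes that overlap Sox5, those in the count table had at most 1 read in any library.

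The SOXB1 and SOXF members were not detected in F7. Sox2 (chromosome 3, 34650405 to 34652461, plus strand) had no read in F7 and 2 reads in control, both in control library 1. A count of 0 in the 4 F7 libraries, taken as at most 3 reads over the group, allows up to 0.0793 CPM. Sox17 (chromosome 1, 4490931 to 4497354) and Sox18 (chromosome 2, 181669836 to 181671640), both on the minus strand, had no read in any of the 9 libraries. That allows up to 0.0793 CPM in F7 and 0.0463 CPM in control for each, for counting error only, and gives no fold change. Sox7, the third SOXF gene, was also at 0 throughout.

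Markers of cell types in which the silent members are known were low as well. Of 7 endothelial markers, Tie1 had no read, Pecam1, Cdh5, Kdr, Tek and Emcn had 0 to 15 reads per group, and Egfl7 accounted for most of the sum of 3.86 to 5.05 CPM in F7 and 1.95 to 2.53 CPM in control. Egfl7 itself rose in F7 (log2 fold change 0.93, edgeR adjusted p = 0.00380). The 4 pluripotency markers summed to at most 0.306 CPM in F7 and 0.362 CPM in control, with Utf1 and Zfp42 at 0. The 4 chondrocyte markers summed to 0.951 to 1.97 CPM in F7 and 0.241 to 1.39 CPM in control, nearly all from Col2a1, and Matn1 had no read. The 5 epithelial markers summed to 1.53 to 2.35 CPM in F7 and 0.889 to 2.61 CPM in control, with Epcam at 0. Among markers of glia and neural crest, cells in which Sox8 and Sox10 are known, Erbb3 averaged 2.36 CPM in F7 and 1.06 CPM in control and rose by 1.09 on the log2 scale (edgeR adjusted p = 0.01001). Foxd3 had 0 reads in F7 and 3 in control. The part of such cells in the values of Sox8 was not tested.

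Other SOX genes and genes linked to SOX factors as partners, targets or signalling genes were read from the same fit. On 7 such lists with 70 distinct genes, 32 were tested and 14 were called, 8 higher and 6 lower, or 43.8% against 35.3% over all tested genes. Their median log2 fold change was -0.10, against -0.0052 for all tested genes. These counts describe the lists and were not tested.

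Among 16 SOX partners and cofactors 12 were tested, of which 3 rose and 2 fell, with a median of -0.10. The HMG-box factor Tcf7, which reads out Wnt signals with beta-catenin, rose the most, with 7.68, 7.37, 7.39 and 6.58 CPM in F7 libraries 1 to 4. Control libraries 1 to 5 had 2.59, 2.59, 3.15, 2.97 and 2.70 CPM of Tcf7, all below the F7 libraries. Tcf7 differed by 1.38 on the log2 scale (SE 0.14, edgeR adjusted p = 8.55e-06). Its relative Tcf7l1 rose by 0.32 on the log2 scale, with overlapping groups (edgeR adjusted p = 0.0356), and Tcf7l2 fell by 0.52 without overlap (edgeR adjusted p = 0.000933), whereas Lef1 measured 0.07 without a call. The nuclear import factor Kpnb1 rose by 0.42 without overlap (edgeR adjusted p = 0.00172), a call lost when F7 was represented by replicates 3 and 4 only (0.0514). The coactivator Crebbp fell by 0.26, with overlapping groups (edgeR adjusted p = 0.0167). The Crebbp call was lost in 5 of 23 settings, among them F7 replicates 1 and 2 alone (0.102), F7 replicates 3 and 4 alone (0.104) and without F7 replicate 1 (0.0527). Ctnnb1, the gene of beta-catenin, measured 0.15 without a call (edgeR adjusted p = 0.0582).

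Of 16 cartilage genes known as targets of SOX9 with SOX5 and SOX6, 14 were in the table and 5 were tested; 2 fell and none rose. Col27a1, a fibrillar collagen of cartilage, had 9, 14, 10 and 6 reads in F7 libraries 1 to 4 and 180, 201, 180, 187 and 155 reads in control libraries 1 to 5. It fell to 1.11 CPM in F7, against 14.2 CPM in control, and the groups were far apart. The change was -3.75 on the log2 scale with an SE of 0.23 (edgeR adjusted p = 8.34e-08). Comp, a cartilage matrix protein, had 20 reads in F7 and 88 in control and fell by 1.35 on the log2 scale (edgeR adjusted p = 0.00784), a call lost with F7 replicates 1 and 2 alone (0.0517) and with 3 and 4 alone (0.0902). Col2a1, the classic SOX9 target, had 52 reads in each group and was not called (log2 fold change 0.73, SE 0.43). Acan, Col9a1 and Col11a1 had no read in F7 and 1 or 2 in control.

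Of 7 genes of FGF and RET signalling 6 were tested, of which 3 rose and 1 fell, with a median of 1.61. The receptor Fgfr2 had 12.7, 13.3, 15.1 and 17.3 CPM in F7 libraries 1 to 4, against 95.4, 102, 61.3, 76.9 and 66.7 CPM in control libraries 1 to 5. All F7 libraries lay below all controls, by -2.49 on the log2 scale with an SE of 0.17 (edgeR adjusted p = 1.13e-06). The ETS factors Etv5 and Etv4 rose by 2.63 and 2.07 and the ligand Wnt11 by 2.23. Etv4 had 41.8, 38.7, 29.8 and 23.6 CPM in F7 libraries 1 to 4. F7 libraries 1 and 2 thus stood above 3 and 4 for Etv4, as for Wnt11, Sox4, Sox8, Sox9 and Sox11. Etv5 did not part this way, at 6.95, 8.57, 7.06 and 5.81 CPM in F7 libraries 1 to 4, and Fgfr2 was higher in libraries 3 and 4. A link between these patterns was not tested. Dusp6 and Spry1, feedback inhibitors of FGF signalling, were not called (log2 fold changes 1.15 and -0.26), and the receptor Ret had no read.

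The remaining lists held few expressed genes. Of 3 tested SOXC-linked genes Tead2, a partner of the YAP coactivator, rose by 0.27 on the log2 scale (edgeR adjusted p = 0.00859) with no overlap between the groups, while Tubb3 and Ezh2 measured -0.09 and -0.15 without a call. With F7 replicates 3 and 4 alone Tead2 was not called (edgeR adjusted p = 0.0798). Dcx, a neuronal gene linked to SOXC, had 6 reads in F7 and 42 in control and was not tested. Vcam1 and Notch4, which are linked to SOXF in endothelium, had log2 fold changes of 0.50 and -0.60 (edgeR adjusted p = 0.104 and 0.226) and were not called. Klf4 and Nes, the 2 tested SOX2-linked genes, had log2 fold changes of -0.25 and 0.14 (edgeR adjusted p = 0.266 and 0.259) and were not called.

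**Figure D3:**
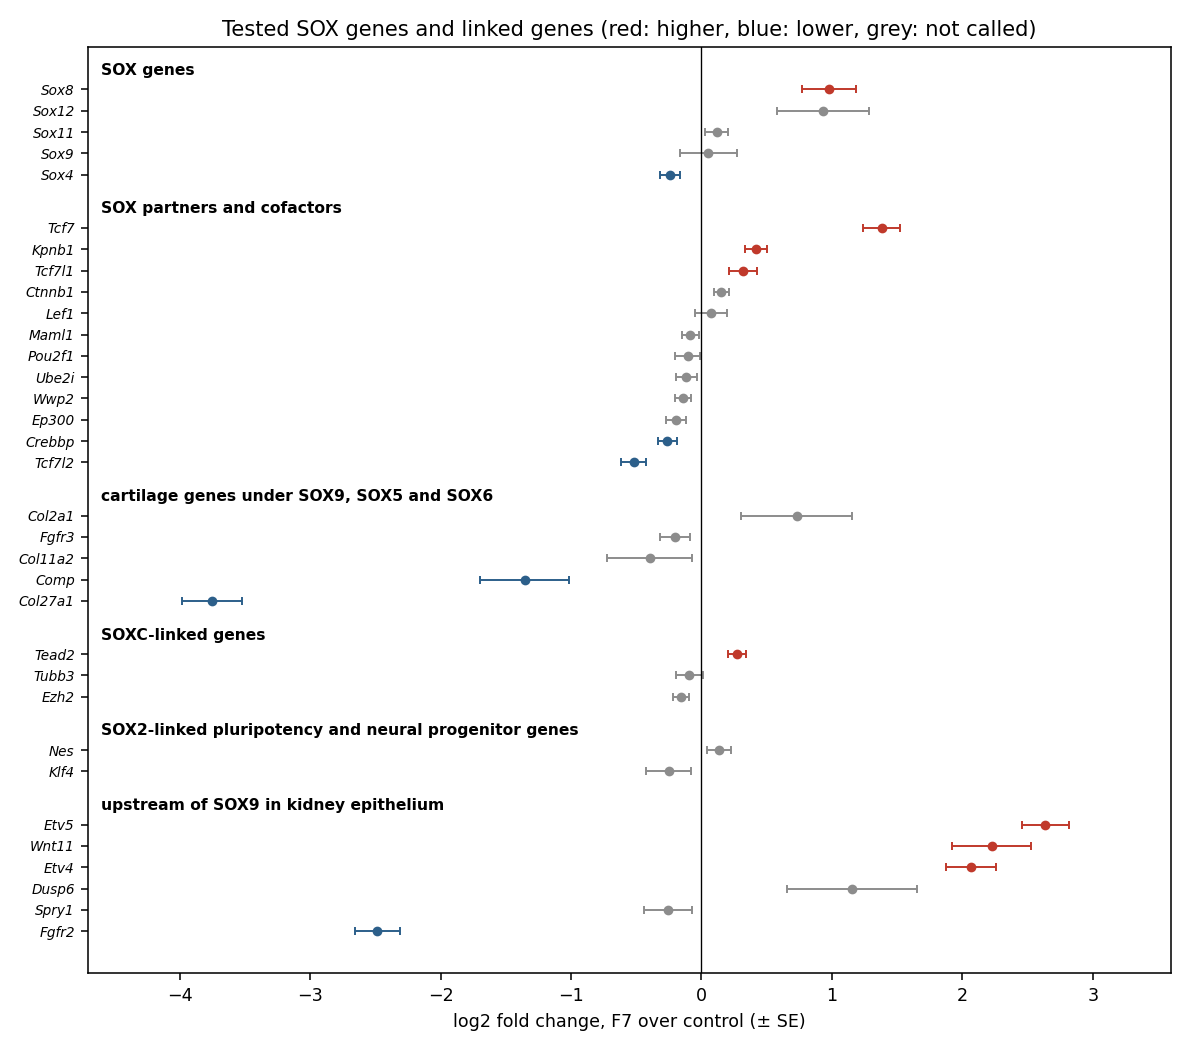
Log2 fold change of F7 over control with its SE for the 5 tested SOX genes and for tested list genes. The lists are partner, cartilage, SOXC-linked, SOX2-linked, and FGF and RET signalling. The last is headed upstream of SOX9 in the figure, an order that was not tested. Points are red where called higher, blue where called lower and grey where not called (edgeR, adjusted p under 0.05). Sox4, Sox11 and Sox9 lie between -0.24 and 0.12, whereas Fgfr2, Etv5 and Col27a1 lie beyond 2 in size.

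Genes near the tested SOX genes moved in both directions, as did all tested genes, of which 17.4% were called higher and 17.9% lower. Within 5 Mb on each side of Sox4, 26 other genes were tested, 4 higher and 3 lower, with a median log2 fold change of 0.09. Around Sox12, on chromosome 2, 127 were tested, 26 higher and 17 lower, with a median of -0.03. The medians around Sox8, Sox9 and Sox11 were -0.0022, 0.08 and -0.10.

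**Figure D4:**
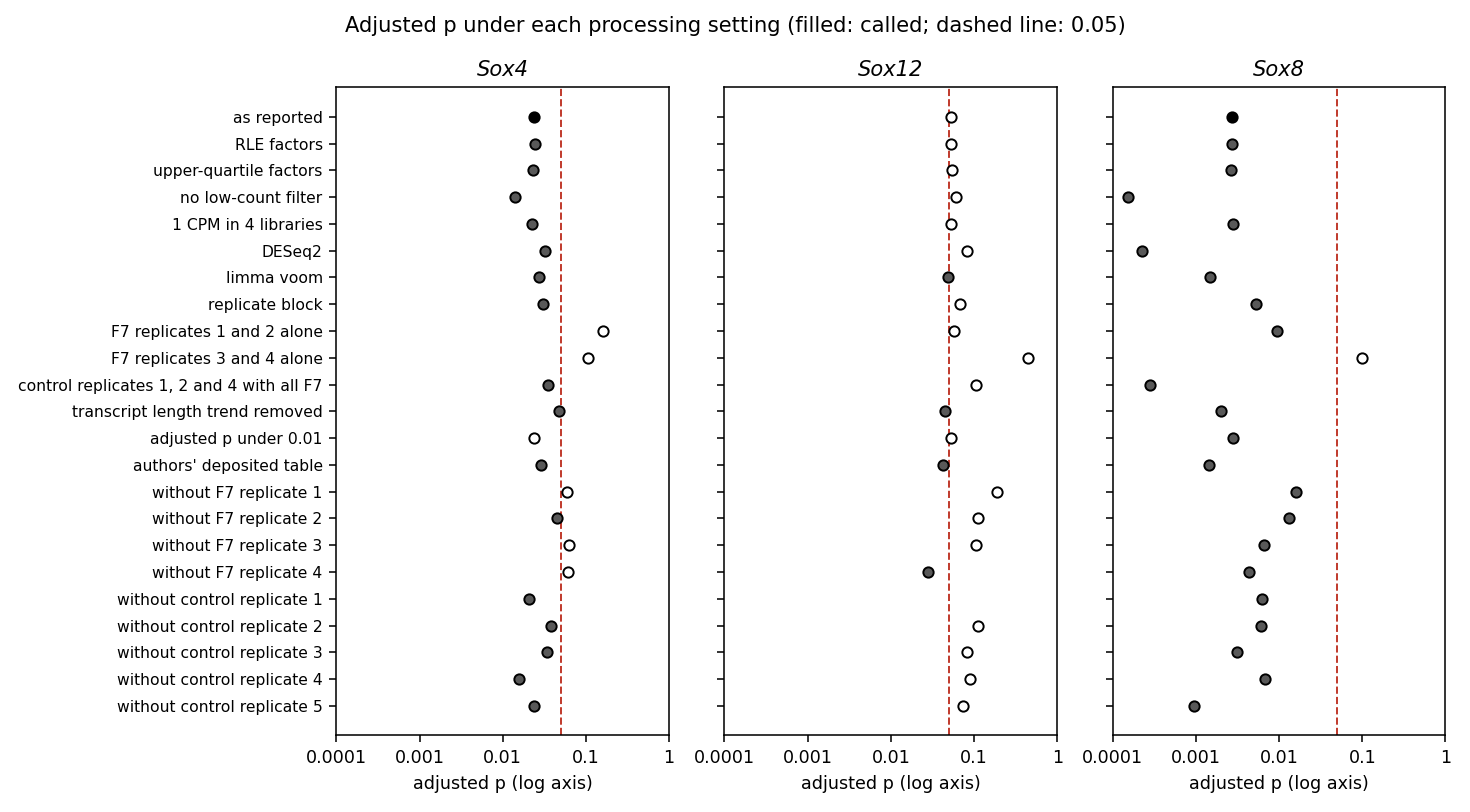
Adjusted p (horizontal axis, logarithmic) of Sox4, Sox12 and Sox8 under each processing setting other than the test against a fold of 1.5, with filled points where the gene was called and a dashed line at 0.05. Sox4 crosses the line with only 2 F7 replicates and without F7 replicate 1, 3 or 4, Sox12 lies at 0.0533 as reported and falls below the line in 4 settings, and Sox8 stays below it except with F7 replicates 3 and 4 alone.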

How the data were processed

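The authors deposited raw counts of reads per gene symbol, assigned to mm10 and counted with featureCounts per the submitters' processing notes. With the aligner, annotation and strand not given in the sources used here, reads of overlapping genes on opposite strands cannot be told apart. The authors' normalized table holds a signal, the deposited counts divided by 1 factor per library: the ratio was constant within 1e-06 in all 9 libraries. The authors' deposited comparison, by DESeq2 1.18.1 in R 3.4.3 per the submitters' processing notes, gives log2 fold changes and adjusted p-values, quoted only where that table is named. Across the 2 per-library tables, 2 columns matched no sample and were not used, although the authors' comparison may include them. Columns of F7 replicates 3 and 4 were matched by clone and replicate number.

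Counts were tested with edgeR 4.0.16 (robust quasi-likelihood, TMM, group only, filterByExpr with a minimum count of 10 and a total of 15) in R 4.3.3, with an adjusted p under 0.05 required for a call. The standard error is the log2 fold change over the square root of F. The code was tested on simulated data. Positions and the union of exon lengths came from GENCODE for mm10, and symbols matched for 93.9% of tested genes. Named were each SOX gene, up to 4 called genes per list with the smallest adjusted p, Foxd2, Pax2 and overlapping genes; others were named after their values were seen. Some list genes enter the counts and are not reported by name here. Members, lists and alternatives were chosen with earlier results of these data known. DESeq2 1.42.0 and limma 3.58.1 were alternatives. No 2 libraries of a group agreed within sampling noise.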

Additional observations from a re-analysis of the deposited data

Results flagged for a closer look

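Among 66 groups of libraries checked, 9 held 1 library far from the others. In 8 of these 9 the value rests on 1 to 4 reads of a SOX gene that was otherwise at or near 0. Chance alone flags about 1 in 20 such groups when values are continuous. That rate does not apply to counts near 0, where 1 read can be enough for a flag. In F7, replicate 3 had 1 read of Sox6 (0.168 CPM) and 2 of Sox13 (0.336 CPM), and replicate 2 had 1 read of Sox1 (0.0857 CPM), with 0 in the other F7 libraries. In control, replicate 1 had 2 reads of Sox2 (0.121 CPM) and replicate 2 had 4 of Sox13 (0.296 CPM) and 1 of Sox21 (0.0741 CPM). Control replicate 3 had 1 read of Sox1 (0.083 CPM) and control replicate 5 had 1 of Sox3 (0.0843 CPM). Pax2 stood at 170 CPM in control replicate 1, with the other controls between 144 and 152 CPM.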

How the results depend on the processing

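The count of SOX members called, 1 with all libraries, was 2 by limma voom, with the transcript length trend removed and in the authors' deposited table, where Sox12 was called higher beside Sox4. It was 0 with F7 replicates 1 and 2 alone, with F7 replicates 3 and 4 alone, at an adjusted p under 0.01 and in a test against a fold of 1.5, and between 0 and 1 with each library left out in turn. Without F7 replicate 4 the 1 call was Sox12 and not Sox4. Sox4 kept its direction in all 23 settings (log2 fold change -0.28 to -0.19) and lost its call in 7. Sox12 kept its direction in all 22 settings that tested it (0.63 to 1.12) and was called in 4. Sox11 (-0.03 to 0.25) and Sox9 (-0.30 to 0.32) were called in none of 23, and both changed sign among them. The 14 called list genes became 8 with F7 replicates 3 and 4 alone and 6 in the test against a fold of 1.5, and 12 to 17 with a library left out. The replicate number as a block, over replicates 1 to 4 of both groups, left 1 SOX member called (Sox4, log2 fold change -0.25, edgeR adjusted p = 0.0306) and 13 list genes. Same-numbered libraries correlated between -0.06 and 0.18, and only F7 replicate 3 matched its own number best, so the numbers do not pair the samples. Of all tested genes, 35.3% were called as reported, 4.97% in the test against a fold of 1.5, 14.0% with F7 replicates 3 and 4 alone and 19.6% at an adjusted p under 0.01. Without the low-count filter the median log2 fold change of all genes was -0.10, and Sox4 measured -0.25. Depth limits what can be said of Sox2, Sox5, Sox6, Sox13, Sox17 and Sox18.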
